A study of Mus musculus with 4 samples.

Results

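Laminin chains, the protein subunits from which the laminins of the lens capsule are assembled, were examined gene by gene in RNA from whole mouse lenses. The 9 chain genes described here are *Lama1*, *Lama2*, *Lama3*, *Lama4*, *Lama5*, *Lamb1*, *Lamb2*, *Lamb3* and *Lamc1*, of 11 laminin chain genes in a table of 56748 genes. They were selected from that table by gene name, with earlier results of the mutant and control comparison already known, so the difference between the genotypes is given for them as a description and supports nothing by itself. The lenses came from mice 10 to 12 days old, lenses of several mice were combined for each library, and there were 2 mutant and 2 control libraries. Mutant mice were *Fsp1-cre;Pdgfrb*+/D849V, in which a cre recombinase under the *Fsp1* (*S100a4*) promoter switches on an activated form of the receptor PDGFRβ from its own locus. The study treats expression of the activated receptor in the lens as assumed, since its cre reporter alone does not show it. The sample labels give the controls as *Fsp1-cre;Pdgfrb*+/+, whereas the study's methods say that the control pools also held cre-negative *Pdgfrb*+/+ and *Pdgfrb*+/D849V mice. Mutant and control mice came from 1 line on the FVB/N background that carries the *Rosa-LSL-tdTomato* reporter. Neither the *Fsp1* promoter nor the *Pdgfrb* locus is active in the lens alone, and the number of mice behind each pool is not given by library in the sources used here. The p-values below therefore measure the spread between these pools.

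A laminin is a cross-shaped heterotrimer of 1 α, 1 β and 1 γ chain that is joined in the cell, secreted, and polymerized at the cell surface into the sheet on which a basement membrane is built. The α chain carries the domains that bind integrins and dystroglycan, so the choice of α chain largely sets which cells hold on to a given laminin. The lens capsule is an unusually thick basement membrane, laid down by the lens epithelium in front and by the fibre cells behind, in which laminins lie beside type IV collagen, nidogen and perlecan. Only RNA was measured here, and no value below speaks for protein in the capsule.

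Levels are given as FPKM (fragments per kilobase of gene, scaled by a factor for each library), as deposited, which allows genes of different lengths to be compared. The whole reads behind each FPKM could be recovered, and the libraries held between 18561682 and 18878768 of them, of which between 58.6% and 62.9% lay on crystallin genes. The 9 chains took 5055 and 5848 reads in mutant replicates 1 and 2, and 7403 and 5964 reads in control replicates 1 and 2, which is between 0.0268% and 0.0399% of each library. Summed markers of lens fibre cells stood between 95734 and 109598 FPKM and those of lens epithelium between 130 and 156 FPKM, although the fibre gene *Lim2* was listed at 0. The epithelial sum was lowest in mutant replicate 1, at 130 FPKM, and stood at 156, 145 and 149 FPKM in mutant replicate 2, control replicate 1 and control replicate 2. Most of this sum was *Foxe3* alone, at 103, 122, 109 and 119 FPKM in the same order of libraries. Traces of other cells were present, with summed endothelial markers between 8.31 and 12.0 FPKM, pericyte or smooth muscle markers between 13.9 and 16.3 FPKM, and blood markers between 17.1 and 34.9 FPKM with *Hba-a2* at 0. Fibroblast markers, at most 1.32 FPKM with *Lum* at 0, retinal markers, at most 2.49 FPKM, pigmented epithelium, at most 1.34 FPKM with *Rpe65* at 0, skeletal muscle, at most 0.568 FPKM with *Acta1* at 0, immune cells, at most 0.896 FPKM, and corneal epithelium, at most 0.0879 FPKM, were lower. In such bulk tissue, fewer cells of a type and less RNA per cell cannot be told apart.

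The RefSeq promoter table held windows for 5 of the 9 chains, and those of *Lama2*, *Lama5* and *Lamb1* are shown here because *Lama2* had the largest difference between the genotypes and *Lama5* and *Lamb1* were the most abundant α and β chain. Each window is the 250 bases before the annotated start in build GRCm38.p6, written 5′ to 3′ along the gene's own strand, and capitals mark the GC box, GGGCGG or its reverse complement CCGCCC. The *Lama2* window lies at chr10:27616943-27617192 on the minus strand, that of *Lama5* at chr2:180225860-180226109 on the minus strand, and that of *Lamb1* at chr12:31265043-31265292 on the plus strand.
Lama2: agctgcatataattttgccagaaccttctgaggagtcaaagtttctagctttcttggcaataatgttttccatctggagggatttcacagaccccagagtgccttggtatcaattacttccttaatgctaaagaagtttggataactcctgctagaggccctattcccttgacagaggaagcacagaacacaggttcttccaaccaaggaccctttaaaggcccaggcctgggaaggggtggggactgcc
Lama5: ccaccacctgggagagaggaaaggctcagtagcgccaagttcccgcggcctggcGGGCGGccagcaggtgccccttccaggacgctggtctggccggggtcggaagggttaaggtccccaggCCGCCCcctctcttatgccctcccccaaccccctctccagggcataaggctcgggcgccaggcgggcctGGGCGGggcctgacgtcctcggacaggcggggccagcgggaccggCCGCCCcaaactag
Lamb1: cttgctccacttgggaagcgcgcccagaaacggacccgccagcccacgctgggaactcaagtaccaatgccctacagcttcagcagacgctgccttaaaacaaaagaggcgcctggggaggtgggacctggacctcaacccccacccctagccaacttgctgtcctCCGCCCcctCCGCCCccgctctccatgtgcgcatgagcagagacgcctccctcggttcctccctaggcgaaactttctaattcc
The *Lama2* window had a GC content of 47.2%, no CG dinucleotide and no GC box. The *Lama5* window had a GC content of 72.4%, with 19 CG dinucleotides and 4 GC boxes, and the *Lamb1* window a GC content of 62.0%, with 14 CG dinucleotides and 2 GC boxes. *Lamb2*, at 43.6% and 3 CG dinucleotides, and both annotated starts of *Lamb3* held no GC box. Of 32851 promoter windows of the same length in the table, 32.7% held a GC box on either strand, and the medians were 52.4% GC and 6 CG dinucleotides. None of the windows of the 5 chains held the TATA box letters TATAAA on either strand, which were present in 12.4% of all windows. These matches describe letters in a window and say nothing of which factors bind there.

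**Figure D1:**
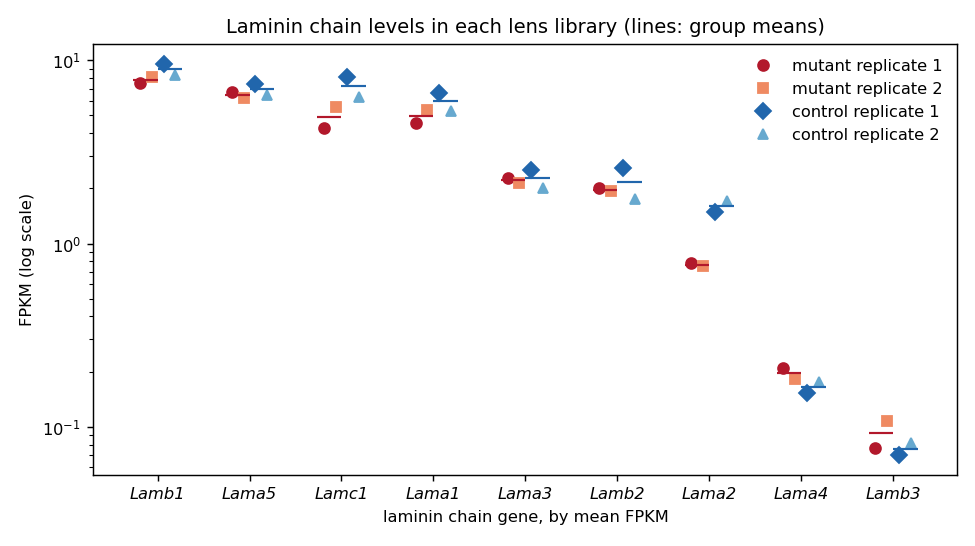
Level of each laminin chain gene (x axis, ordered by mean level) in FPKM on a log scale (y axis), with 1 point per library and a short line at each group mean. *Lamb1*, *Lama5*, *Lamc1* and *Lama1* lie between 4.24 and 9.59 FPKM, *Lama4* and *Lamb3* lie below 0.21 FPKM, and *Lama2* has both mutant points well below both control points.

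The chains spanned a wide range of levels. In order of the mean over the 4 libraries, *Lamb1* stood at 8.38, *Lama5* at 6.73, *Lamc1* at 6.05, *Lama1* at 5.46, *Lama3* at 2.24, *Lamb2* at 2.07, *Lama2* at 1.18, *Lama4* at 0.180 and *Lamb3* at 0.0841 FPKM. The ranges over the 4 libraries overlapped between the neighbours *Lama5* and *Lamc1*, between *Lamc1* and *Lama1*, and between *Lama3* and *Lamb2*, so these pairs did not differ beyond their spread. The other 5 neighbouring pairs did not overlap. Against all 15997 genes tested, *Lamb1* lay at percentile 88.0 of mean level, *Lama2* at percentile 51.4 and *Lama4* at percentile 12.2. FPKM divides by the length the table gives a gene, which counts all its exons, and for *Lama2* this was 16605 bases against 9614 in the longest coding transcript of the GENCODE M21 annotation. The lengths were 9917 against 5784 bases for *Lamb1* and 12068 against 6046 bases for *Lama4*. With transcript lengths in place of the table's, the order of the 9 chains was the same and the means of *Lamb1* and *Lama4* were 14.4 and 0.359, but *Lama2* then had a mean of 2.04 and its range overlapped that of *Lamb2* at 2.24.

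For the comparison of genotypes, values are given in the order mutant replicates 1 and 2, then control replicates 1 and 2. Log2 fold changes are mutant over control on the log2(FPKM + 0.1) scale, with their standard errors (SE), and p-values are from limma, adjusted by Benjamini-Hochberg over the 15997 genes with a mean of at least 0.1 FPKM. Of the 9 chains, 8 passed this filter and *Lamb3* did not. Across all genes tested, 0.0375% passed an adjusted p of 0.05, 2.92% had an unadjusted p under 0.05 with lower values in mutant lenses and 3.39% with higher values.

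Among the α chains, *Lama2* differed most. *Lama2* (ENSMUSG00000019899, chromosome 10, 26856032 to 27495754 in mm39) encodes the α2 chain, the main laminin α chain of skeletal muscle and peripheral nerve, whose loss causes a congenital muscular dystrophy. It was measured at 0.784, 0.751, 1.48 and 1.72 FPKM, from 232, 244, 478 and 525 reads. Both mutant libraries lay below both control libraries, and the 95% Poisson intervals of the reads, which cover counting error only, ended at 276.6 in the higher mutant library and began at 436 in the lower control library. The group means were 0.767 ± 0.0235 (SD, n = 2) in mutant and 1.60 ± 0.166 (SD, n = 2) in control lenses, so mutant lenses held 48.0% of the control level. The log2 fold change was -0.97 (SE 0.16, limma adjusted p = 0.363). On the recovered reads, limma's voom gave -1.05 with an adjusted p of 8.85e-04, 1 of the 14 genes (0.0875% of those tested) that it called, and over the 11 alternatives that keep all 4 libraries the adjusted p ranged from 8.85e-04 to 0.626. With a library left out it ranged from 0.537 to 0.887, where the lone library of its group is assumed to vary like the other group. With a pseudocount of 1 in place of 0.1, which weighs more on genes near 1 FPKM, the log2 fold change was -0.55.

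The other α chains differed less. *Lama1* (ENSMUSG00000032796, chromosome 17, 68004254 to 68129642), the α1 chain of early embryonic basement membranes and of the lens capsule, had 4.54, 5.35, 6.63 and 5.32 FPKM. Mutant replicate 2 and control replicate 2 were nearly equal, and the groups overlapped, with a log2 fold change of -0.26 (SE 0.16, limma adjusted p = 0.811). *Lama5* (ENSMUSG00000015647, chromosome 2, 179818166 to 179867652), which encodes the α5 chain of most mature epithelial basement membranes, had 6.75, 6.22, 7.44 and 6.50 FPKM. Its groups overlapped as well, and the log2 fold change was -0.10 (SE 0.12, limma adjusted p = 0.863). *Lama3* (ENSMUSG00000024421) encodes the α3 chain that anchors stratified epithelia through hemidesmosomes, and it was measured at 2.29, 2.14, 2.52 and 2.02 FPKM. The lowest and the highest value were both from control lenses, and the log2 fold change was -0.03 (SE 0.16, limma adjusted p = 0.981). *Lama4* (ENSMUSG00000019846, chromosome 10, 38841511 to 38986184), the short α4 chain of blood vessels, had 45, 43, 36 and 39 reads, or 0.209, 0.182, 0.153 and 0.175 FPKM. Both mutant libraries lay above both control libraries, but the Poisson interval of 45 reads, from 32.8 to 60.2, held the counts of all other libraries, and a difference was not detectable at this depth (log2 fold change 0.16, SE 0.39, limma adjusted p = 0.946).

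Among the β chains no member had an unadjusted p under 0.05. *Lamb1* (ENSMUSG00000002900, chromosome 12, 31315233 to 31379643), the β1 chain of most laminins, was the most abundant chain, at 7.55, 8.06, 9.59 and 8.31 FPKM. Both mutant libraries lay below both control libraries, mutant replicate 2 and control replicate 2 by a small margin, with a log2 fold change of -0.19 (SE 0.12, limma adjusted p = 0.811). *Lamb2* (ENSMUSG00000052911, chromosome 9, 108356935 to 108367729), the β2 chain of the neuromuscular junction and the kidney glomerulus, had 217, 231, 305 and 197 reads, and between 1.76 and 2.58 FPKM. Its highest and lowest value were again both from control lenses, and the log2 fold change was -0.11 (SE 0.21, limma adjusted p = 0.925). *Lamb3* (ENSMUSG00000026639, chromosome 1, 192890007 to 193026186), the β3 partner of α3 in skin, had 9, 14, 9 and 10 reads and was not tested.

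*Lamc1* (ENSMUSG00000026478, chromosome 1, 153094668 to 153208532) encodes γ1, the γ chain of nearly all laminins, including those built on α1, α2, α4 and α5. It had 4.24, 5.56, 8.09 and 6.29 FPKM, from 626, 901, 1302 and 959 reads. Both mutant libraries lay below both control libraries, with mutant replicate 1 lowest and control replicate 1 highest, and the nearest pair, 5.56 and 6.29 FPKM, was closer than the libraries within either group. The means were 4.90 ± 0.932 (SD, n = 2) in mutant and 7.19 ± 1.28 (SD, n = 2) in control lenses, or 68.2% of the control level. The log2 fold change was -0.54 (SE 0.19, limma adjusted p = 0.771), and voom on the recovered reads gave an adjusted p of 0.171. Left out in turn, single libraries moved it between -0.74 and -0.35, with -0.37 without control replicate 1 and -0.35 without mutant replicate 1.

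Some markers of vessel cells were lower in mutant lenses and others were not. *Rgs5*, a pericyte marker, had 3.43, 2.47, 4.60 and 4.30 FPKM without overlap between the groups, or 66.3% of the control level (log2 fold change -0.59, SE 0.18, limma adjusted p = 0.737). *Acta2*, which carries most of the summed pericyte or smooth muscle level, was instead between 9.79 and 12.6 FPKM and overlapped between the groups, and the other 4 markers of that list lay below the filter. Of the 8 endothelial markers, 7 had a log2 fold change under 0, from -0.01 for *Kdr* to -0.70 for *Tie1*, and *Cldn5* stood at 0.04. Of all genes tested, 49.3% were under 0. *Tie1* alone was free of overlap, at 0.433, 0.260, 0.586 and 0.640 FPKM, from 38, 25, 56 and 58 reads. Both mutant libraries lay below both control libraries in 18.3% of all genes tested, and above them in 18.2%. *Rgs5* and *Tie1* were named after their values were seen. Summed fibroblast markers were higher in both mutant libraries, at 1.01, 1.32, 0.799 and 0.722 FPKM. So were summed immune markers, at 0.446, 0.896, 0.241 and 0.228 FPKM. The sums of pigmented epithelium and skeletal muscle were lower in both mutant libraries, and the other marker sums overlapped between the groups. The part of any of these cell types in the laminin differences was not tested.

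**Figure D2:**
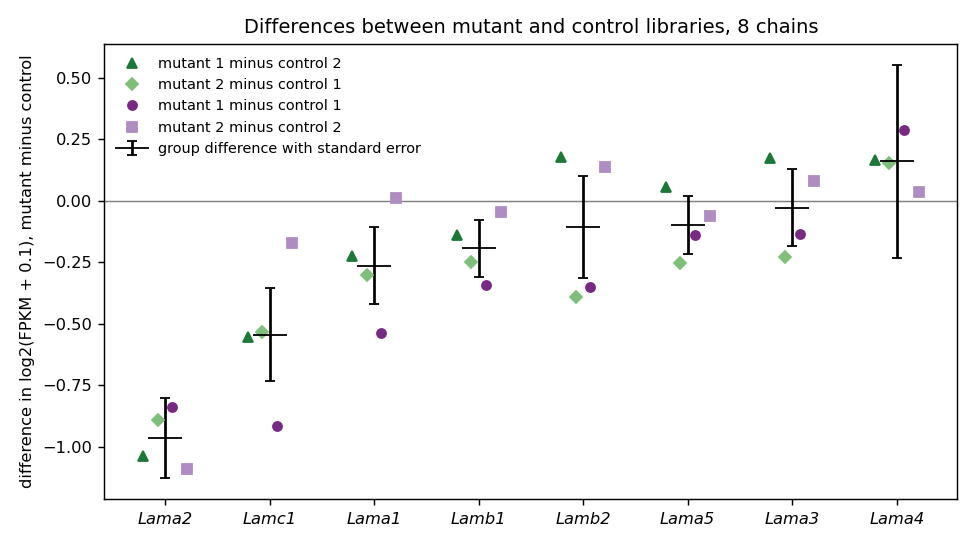
Difference between mutant and control libraries in log2(FPKM + 0.1) (y axis) for the 8 laminin chains tested (x axis). Coloured points are the 4 differences between 1 mutant and 1 control library, and black lines are the group difference with its standard error. All 4 points lie below 0 for *Lama2*, *Lamc1* and *Lamb1*, all 4 lie above 0 for *Lama4*, and the points of *Lamb2*, *Lama5*, *Lama3* and *Lama1* fall on both sides.

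Of the 8 chains tested, 7 had a log2 fold change under 0, with *Lama4* the exception, and the median was -0.15, against 49.3% of all genes under 0 and a median over all genes of 0.0041. *Lama2*, *Lamb1* and *Lamc1* had both mutant libraries below both control libraries, which was so for 18.3% of all genes tested, and *Lama4* had them above, as 18.2% of all genes did. *Lama2* and *Lamc1* had an unadjusted p under 0.05 and none of the 8 passed the adjusted threshold in limma, where voom passed *Lama2* alone. Since the chains were chosen with this comparison known, nothing is read from these counts. Control replicate 1 was the highest of the 4 libraries in 6 of the 8 chains, all but *Lama2* and *Lama4*, against 24.6% of all genes. Without it 5 of the 8 were lower with a median of -0.05, *Lama3* turned to 0.13 and *Lamb2* to 0.16, and *Lama2* stood at -1.07. Without mutant replicate 1, 7 of 8 were lower with a median of -0.15, and without control replicate 2 the median was -0.33. Without mutant replicate 2, 6 of 8 were lower.

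The pools differed in the share of female and male mice, as read from *Xist*, the RNA of the silenced X chromosome, which had 7.62 and 13.1 FPKM in the mutant and 15.6 and 5.56 FPKM in the control libraries. Within the libraries of low *Xist*, mutant replicate 1 against control replicate 2, the log2 difference was -1.04 for *Lama2*, -0.56 for *Lamc1*, -0.22 for *Lama1* and -0.14 for *Lamb1*, and 4 of 8 chains were lower. Within those of high *Xist*, mutant replicate 2 against control replicate 1, it was -0.89 for *Lama2*, -0.53 for *Lamc1*, -0.30 for *Lama1* and -0.25 for *Lamb1*, and 7 of 8 were lower. The share of all genes that were lower within each pair is not given, so nothing is read from these counts. *Lama2* and *Lamc1* differed by similar amounts within both pairs, each of 1 library against 1. Between same-numbered replicates, which differ in *Xist*, the log2 difference was -0.92 and -0.17 for *Lamc1* and -0.84 and -1.09 for *Lama2*. *Lamb2*, at 0.18 and -0.39, *Lama3*, at 0.17 and -0.23, and *Lama5*, at 0.05 and -0.25, had opposite signs in the 2 pairs.

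**Figure D3:**
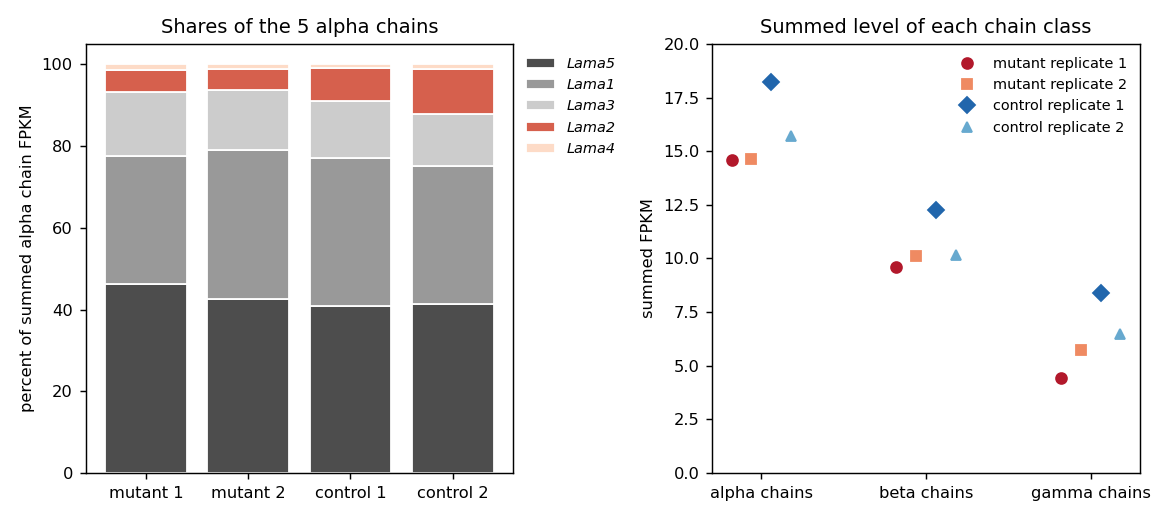
Left, share of each α chain in the summed α chain FPKM (y axis, percent) in the 4 libraries (x axis). Right, summed FPKM (y axis) of the 5 α, 3 β and 3 γ chains in each library. The *Lama2* segment takes 5.38% and 5.13% in mutant and 8.12% and 10.9% in control libraries, and the γ sum runs from 4.42 to 8.39 FPKM.

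Because each trimer holds 1 chain of each class, the chains were also set against one another within a library, which removes any scaling between libraries. *Lama2* made up 5.38% and 5.13% of the summed α chain FPKM in mutant and 8.12% and 10.9% in control lenses, with means of 5.25% ± 0.179 and 9.51% ± 1.97 (SD, n = 2 each). The groups did not overlap, and the difference of -4.26 percentage points ran from -5.65 to -2.87 when single libraries were left out. The ratio of *Lama2* to *Lama5* likewise separated the groups, at 0.116, 0.121, 0.199 and 0.264, whereas that of *Lama2* to *Lamc1* overlapped, at 0.185, 0.135, 0.183 and 0.273. With 2 libraries a group, the smallest exact two-sided permutation p is 0.333, so these ratios were not tested.

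*Lama5* was the leading α chain in every library, with 46.4%, 42.5%, 40.8% and 41.3% of the α sum, followed by *Lama1* with 31.1%, 36.5%, 36.4% and 33.8%. The *Lama5* share was higher in both mutant libraries, and that of *Lama1* overlapped between the groups. *Lama3* held 15.7%, 14.6%, 13.8% and 12.8%, also without overlap. The shares within a library add up to the whole, so a lower *Lama2* share raises the others by construction. In FPKM, both *Lama5* and *Lama3* overlapped between the groups. *Lamb1* made up between 78.4% and 81.9% of β.

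The sums over all 11 chains were 28.6, 30.5, 38.9 and 32.3 FPKM, without overlap between the groups. Of single genes tested, 18.3% had both mutant libraries below both control libraries. α sums were 14.6, 14.6, 18.2 and 15.7, β sums 9.62, 10.1, 12.2 and 10.2, and γ sums 4.42, 5.75, 8.39 and 6.46 FPKM. The α to γ ratio was higher in both mutant libraries, at 3.29 and 2.55 against 2.17 and 2.43. So was the β to γ ratio, at 2.18 and 1.76 against 1.46 and 1.57. The α and β sums themselves were lower in both mutant libraries, with control replicate 1 highest in each. The β sums of mutant replicate 2 and control replicate 2 were nearly equal, at 10.10 and 10.15 FPKM. *Lamc1* made up between 96.0% and 97.3% of γ, so these ratios largely restate its lower level. Mutant replicate 2 and control replicate 2 lay close, at 2.55 and 2.43 for α to γ. The α to β ratio, at 1.51, 1.45, 1.49 and 1.55, overlapped between the groups. Without *Lama2*, the α sums were 13.8, 13.9, 16.7 and 14.0 FPKM.

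**Figure D4:**
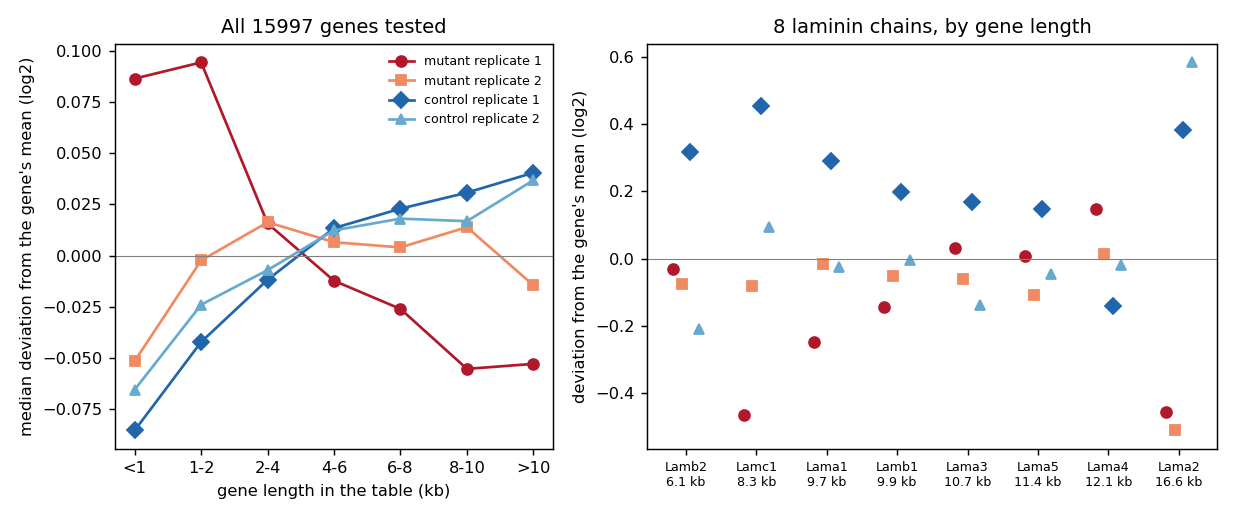
Left, median deviation of each library from the gene's mean (y axis, log2) by gene length in kb (x axis) over the 15997 genes tested. Right, the same deviation for each of the 8 laminin chains tested, ordered by length. Mutant replicate 1 falls from 0.087 in genes under 1 kb to -0.053 in genes over 10 kb. Both control libraries run the opposite way, and mutant replicate 2 runs from -0.052 to -0.015. The *Lama2* points are at -0.46, -0.51, 0.38 and 0.58 and the *Lamc1* points at -0.46, -0.08, 0.45 and 0.09. The left side shows medians over many genes and the right side single genes, so the sides are not compared.

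All chains are long genes, from 6.08 to 16.6 kb, and the levels of genes by length differed between the libraries. From genes under 1 kb to genes over 10 kb, the median deviation of mutant replicate 1 from the gene mean went from 0.087 to -0.053 on the log2 scale. That of mutant replicate 2 went from -0.052 to -0.015, and those of the control libraries from -0.086 to 0.041 and from -0.066 to 0.037. In genes with a mean of at least 1 FPKM, mutant replicate 1 went from 0.103 to -0.065 and mutant replicate 2 from -0.0011 to -0.014. There the control libraries went from -0.037 to 0.037 and from -0.021 to 0.048. The direction of mutant replicate 2 thus depended on the filter. Between the groups, the median log2 fold change over all genes tested was 0.07 under 1 kb and -0.07 over 10 kb, where 62.7% of genes were lower in mutant lenses. Among the 3970 genes of 6 kb or more, 59.0% were lower, with a median of -0.04. With each library's length trend removed, *Lama2* stood at -0.89, *Lamc1* at -0.50 and *Lama1* at -0.21, and *Lama3* turned to 0.03. The part of gene length in the smaller differences was not tested otherwise.

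No gene that shares coordinates with a chain had 10 or more reads in any library, among 6 such genes in *Lama2*, 6 in *Lamb3*, 4 in *Lama3*, 2 in *Lamc1* and 1 in *Lama5*. The genes most like *Lama2* over the 4 libraries were sought among all with a mean of at least 1 FPKM, by the distance between centred log2(FPKM + 0.1) values. The nearest were *Gm9869* at a distance of 0.0834, *Gm44126* at 0.153 and *Gm42808* at 0.178. *Gm9869* rested on 8, 8, 17 and 19 reads and *Gm44126* on 11, 10, 22 and 23, and *Gm42808* had 80, 88, 140 and 156. Of the chains, *Lamc1* was closest, at a distance of 0.655 and rank 251, followed by *Lama1* at 0.815 and *Lamb1* at 0.830. This distance counts the size of the differences as well as their order, so a chain with the same order and smaller differences lies far away.

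**Figure D5:**
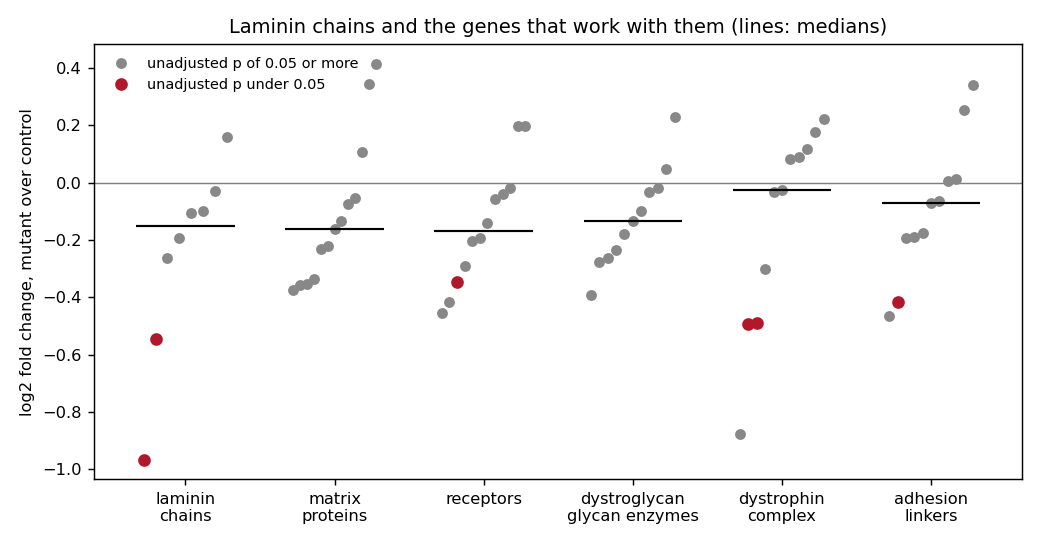
Log2 fold change, mutant over control (y axis), of each gene tested in 6 gene lists (x axis), with a line at each list's median. Medians lie between -0.17 for laminin receptors and -0.03 for the dystrophin complex, and *Lama2*, at -0.97, is the lowest point drawn.

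The proteins that laminins meet in the basement membrane and at the cell surface were read from lists of known partners, in the same fit. For the counts below, 49.3% of all genes tested had a log2 fold change under 0. Among genes of 6 kb or more, 59.0% did. Of 14 laminin-binding matrix proteins, 13 were tested (all but *Ntn4*), 10 had lower and 3 higher values in mutant lenses, the median log2 fold change was -0.16 and none had an unadjusted p under 0.05. *Col4a1* and *Col4a2*, the paired chains of the most widespread type IV collagen, were by far the most abundant, at 182.9, 232.8, 289.1 and 241.8 FPKM and at 155.0, 199.7, 232.6 and 183.6 FPKM. *Col4a1* had a log2 fold change of -0.36 (SE 0.16, limma adjusted p = 0.809), with mutant replicate 1 lowest and control replicate 1 highest, and *Col4a2* overlapped between the groups at -0.23. *Col4a5*, a chain of the collagen IV of kidney, cochlea and eye, had 18.6, 23.1, 28.6 and 24.6 FPKM and a log2 fold change of -0.35 (limma adjusted p = 0.801). *Fbln2*, a fibulin that binds laminin and elastic fibres, had higher values in both mutant libraries, 0.793 and 0.938 against 0.686 and 0.630 FPKM (limma adjusted p = 0.811). Control replicate 1 was the highest library in 9 of the 13 genes, against 24.6% of all genes tested.

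Of 14 laminin receptors, 12 were tested (all but *Itga7* and *Itgb4*), 10 had lower and 2 higher values, and the median log2 fold change was -0.17. *Itga6*, whose integrin α6 joins β1 or β4 into a laminin receptor, alone had an unadjusted p under 0.05. It had 7.67, 7.44, 9.30 and 9.97 FPKM, the groups did not overlap, and the log2 fold change was -0.35 (SE 0.10, limma adjusted p = 0.707). *Itgb1*, the β1 subunit common to most laminin-binding integrins and the most abundant receptor, had 31.0, 34.4, 37.6 and 37.1 FPKM (log2 fold change -0.19, limma adjusted p = 0.811). *Sdc3*, a neural heparan sulfate proteoglycan of the cell membrane, had 2.96, 2.81, 3.86 and 3.27 FPKM (limma adjusted p = 0.809). *Sdc2*, from the same syndecan family, had 14.3, 13.6, 15.1 and 13.9 FPKM and overlapped between the groups. *Dag1*, which encodes dystroglycan and lies outside the naming rule, was chosen after its values were seen. It had 5.79, 8.54, 11.0 and 8.54 FPKM, from 656, 1063, 1355 and 1001 reads. Its log2 fold change of -0.45 (SE 0.23, limma adjusted p = 0.811) was the lowest of the 12 receptors tested. Left out in turn, single libraries moved this value between -0.73 and -0.18. In FPKM, mutant replicate 2 and control replicate 2 were equal at this precision.

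Dystroglycan binds laminin only through a sugar chain built by a set of enzymes. Of 13 such enzymes, 11 were tested (all but *Large2* and *B4gat1*), 9 had lower and 2 higher values, with a median log2 fold change of -0.14 and none at an unadjusted p under 0.05. *Pomgnt1*, an enzyme that extends the first mannose, had 3.59, 4.18, 4.42 and 4.39 FPKM. Both mutant libraries were below both control libraries, with a log2 fold change of -0.18 (SE 0.12, limma adjusted p = 0.811).

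Inside the cell, dystroglycan is held by dystrophin or utrophin and their partners. Of 13 genes of this complex, 11 were tested, 6 had lower and 5 higher values, with a median log2 fold change of -0.03, and *Sntb1* and *Utrn* had an unadjusted p under 0.05. *Sntb1*, which encodes the adaptor β1-syntrophin, had 4.89, 5.55, 7.31 and 7.40 FPKM, a log2 fold change of -0.49 (SE 0.11, limma adjusted p = 0.613). *Utrn*, the gene of utrophin, had 0.626, 0.734, 0.974 and 1.02 FPKM, a log2 fold change of -0.49 (SE 0.18, limma adjusted p = 0.783).

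Among 11 linkers between integrins and the cytoskeleton, all were tested, 7 had lower and 4 higher values, and the median log2 fold change was -0.07. *Dst*, the gene of dystonin, which ties integrins to intermediate filaments, had 3.43, 3.33, 4.48 and 4.61 FPKM and was the only linker with an unadjusted p under 0.05 (log2 fold change -0.42, SE 0.11, limma adjusted p = 0.681). *Parva*, whose parvin binds integrin-linked kinase, had 3.56, 3.58, 4.11 and 4.06 FPKM, a small difference with little spread (log2 fold change -0.19, limma adjusted p = 0.811). *Lims1* had 18.0, 16.0, 12.6 and 16.1 FPKM and *Plec*, the gene of plectin, 7.80, 9.27, 10.3 and 9.02 FPKM, and both overlapped between the groups. None of the genes in these 5 lists passed the adjusted threshold in limma or in voom. Those with an unadjusted p under 0.05 in limma, *Itga6*, *Sntb1*, *Utrn* and *Dst*, were lower in mutant lenses. Over all genes tested, 2.92% had such a p with lower and 3.39% with higher values in mutant lenses. Nothing is read from these counts.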

How the data were processed

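Polyadenylated RNA of pooled lenses was sequenced in 4 libraries. For the authors, the sequencing provider ran HISAT2 and featureCounts and derived FPKM, and the deposited table holds FPKM with gene lengths and positions in mm39, as the submitters' processing notes name the build. Promoter windows are in GRCm38.p6 and were used for sequence only.

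Groups come from the sample labels. FPKM were scaled by median-ratio size factors, with a factor of 1.01 in all 4 libraries, so this step changed nothing between them. The deposited FPKM had been divided by 0.944 and 1.05 times the recovered reads in mutant replicates 1 and 2. In control replicates 1 and 2 this was 1.05 and 0.987 times. Genes with a mean of at least 0.1 FPKM were tested on log2(FPKM + 0.1) with lmFit and eBayes with a trend in limma 3.58.1 (R 4.3.3), with Benjamini-Hochberg adjustment. Fold changes of genes with low FPKM are understated on this scale. Multiplied by gene length, 100% of the deposited FPKM above 0 were whole multiples of 1 step, to within 0.01 reads, and voom was run on these reads. The scripts were tested on simulated data.

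The members, lists and tests were chosen with earlier results of these data known. All members were named, with the other laminin chains, the 3 genes of smallest p and the 2 of highest mean FPKM in each list, the 3 genes nearest to *Lama2*, and genes overlapping a member with at least 10 reads. Some genes that this rule names are not reported here. *Foxe3*, *Rgs5*, *Acta2* and *Tie1*, from the lists of cell type markers, lie outside it and were chosen after their values were seen. Alternatives were pseudocounts of 1 and 0.01, other filters, quantile normalization, scaling to reads outside crystallin genes, no trend, voom, a replicate block, a covariate for *Xist*, and leaving out each library. Removal of the gene length trend and use of transcript lengths were chosen after seeing the data. Figures were drawn with Python 3.11.15 and matplotlib 3.10.9.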

Additional observations from a re-analysis of the deposited data

How the results depend on the processing

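*Lama2* was lower in mutant lenses under all 15 alternatives, between -1.07 and -0.55 on the log2 scale, with -0.55 at a pseudocount of 1, and passed the adjusted threshold only with voom (-1.05, adjusted p = 8.85e-04). When single libraries were left out, its log2 fold change ran from -1.07 to -0.87, the chains with lower values from 5 to 7 of 8, and the neighbouring chains without overlap in level from 5 to 6. The difference in the *Lama2* share of α chain FPKM ran from -5.65 to -2.87 percentage points without single libraries and was -6.53 with transcript lengths, which raise the *Lama2* level by their construction. *Sdc2* ran from -0.12 to 0.0016 on the log2 scale and changed sign without control replicate 1.

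Genes with an adjusted p under 0.05 numbered 6, but 2 at pseudocounts of 1 and 0.01, 2 at a mean of at least 1 FPKM, 1 without a filter, 2 without a trend, 14 with voom and 1 with the *Xist* covariate. Left out in turn, each library gave 0 in limma, with between 787 and 1464 genes at an unadjusted p under 0.05. Receptors with an unadjusted p under 0.05 numbered 1, but 0 without a trend, 3 with voom, 2 with the covariate and 0 to 2 without single libraries. Matrix proteins numbered 0, but 1 at a mean of at least 1 FPKM, without a filter, with quantile normalization and with scaling outside crystallins, 4 with voom, 5 with the covariate and 0 to 1 without single libraries. Dystroglycan enzymes numbered 0, but 1 without a filter, 1 with voom and 0 to 1 without single libraries. Genes of the dystrophin complex numbered 2, but 1 at a mean of at least 1 FPKM, 1 with the covariate, 1 with the length trend removed, 3 without a trend, 3 with voom and 0 to 2 without single libraries. Linkers numbered 1, but 2 with voom and 1 to 2 without single libraries. The cause of these changes was not tested.

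The replicate numbers are shared between the groups, but nothing says that they pair the pools. Deviations from the group mean correlated at -0.0051 over genes between same-numbered libraries. With the replicate block, 2 genes passed the adjusted threshold, *Lama2* had an adjusted p of 0.546, and the dystrophin complex held 1 gene with an unadjusted p under 0.05. Low counts limited *Lama4* and *Lamb3*.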
